A study of Mus musculus with 6 samples.

Results

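Genes for Foxo transcription factors and for ubiquitin ligases of muscle were followed in mouse skeletal muscle satellite cells kept for 2 days under differentiation. The 10 genes were chosen by symbol and matched to Ensembl identifiers: the Foxo factors Foxo1, Foxo3, Foxo4 and Foxo6 and the ligase genes Trim63, Trim54, Trim55, Fbxo32, Fbxo40 and Asb2. All 10 were among the 21666 genes of the deposited count matrix, and all 10 passed the filter on low counts, which left 15518 genes. RNA-seq was run on 3 libraries from lncMREF knockout (KO) mice and 3 from wild-type (WT) mice. lncMREF is a long noncoding RNA that the series title ties to myogenic differentiation and muscle regeneration. Both groups hold cultured satellite cells on the same day of differentiation, and the design asks how loss of the RNA changes the transcripts of these cells. The labels do not give the knockout allele or the strain, age and sex of the mice. Nor do they say whether replicates came from separate animals or cultures: the p-values speak of the scatter among the 6 libraries alone, and that scatter could be technical. The lncMREF transcript itself was not checked, because its name was not matched to an identifier.

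Satellite cells are the stem cells of muscle fibres. In culture they leave the cell cycle, fuse and build sarcomeres. Foxo factors are forkhead transcription factors that the kinase Akt phosphorylates downstream of insulin and Igf1; phosphorylated Foxo is bound by 14-3-3 proteins and held outside the nucleus, and when Akt signalling falls Foxo turns on genes of protein breakdown and autophagy. Trim63 (MuRF1), Trim55 (MuRF2) and Trim54 (MuRF3) encode RING-finger ligases that bind the sarcomere and microtubules, Fbxo32 (atrogin-1) and Fbxo40 encode F-box substrate receptors of cullin ligases, and Asb2 encodes an ankyrin-repeat receptor of a Cul5 ligase. Trim63 and Fbxo32 are widely used as markers of muscle wasting.

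Library totals ran from 17919826 to 23646805 counts in KO and from 20193337 to 28430678 in WT. The cultures carried muscle transcripts in both genotypes: a set of 12 sarcomere, calcium store and energy genes (Myh3, Acta1, Actn2, Ckm, Mylpf, Tnnt3, Tnnc2, Neb, Ttn, Atp2a1, Casq1 and Des) summed to between 6347 and 6669 CPM in KO libraries and between 25080 and 25780 CPM in WT libraries. CPM are counts divided by the scaled library size in megareads. All 12 fell in KO, with a median log2 fold change of -2.23. Tnnc2 was near the floor, at 0.167 CPM in KO and 0.796 CPM in WT, and shares 74.0% of its exonic bases with other genes. The satellite cell gene Pax7 averaged 15.1 ± 0.751 CPM in KO and 10.4 ± 0.782 CPM in WT, and the myogenic factors Myod1 (93.5 ± 3.73 CPM in KO and 302 ± 9.93 CPM in WT) and Myog (312 ± 11.8 CPM in KO and 749.8 ± 33.2 CPM in WT; SD, n = 3 each) fell. Transcripts of the mitochondrial genome took 2.07% to 2.3% of counts in KO and 3.97% to 4.18% in WT. Markers of other cells moved between the same libraries. The 8 endothelial markers summed to 74.3 to 80.1 CPM in KO and 305.4 to 312.5 CPM in WT, and all 8 fell. The 8 macrophage markers summed to 310.9 to 321.8 CPM in KO and 95.4 to 103.9 CPM in WT, and all 8 rose. Of 7 Schwann cell markers, 5 rose and 1 fell (sums of 853.9 to 872.3 CPM in KO and 447.2 to 448.8 CPM in WT), and of 4 tenocyte markers 3 rose and 1 fell (275.3 to 285.5 CPM in KO and 160.3 to 165.1 CPM in WT). Of the 7 smooth muscle and pericyte markers, 5 fell and none rose (2238 to 2313 CPM in KO and 2775 to 2897 CPM in WT). Of 7 fibro-adipogenic markers, 4 fell and 2 rose, with Pi16 under the filter (286.6 to 295.1 CPM in KO and 341.8 to 348.5 CPM in WT). Of 6 adipocyte markers, 2 fell and 1 rose, with Adipoq and Plin1 under the filter (141.7 to 152.7 CPM in KO and 192.7 to 199.5 CPM in WT). In KO a single gene held most of each sum of markers of other cells. These genes, named after their values were seen, were Cdh5 (48.9 CPM), Lyz2 (238.3), Ngfr (518.9), Thbs4 (208.8), Acta2 (1830), Col15a1 (175.9) and Lpl (118.7). The tenocyte marker that fell was Scx (46.3 CPM in KO and 140.7 CPM in WT). The Schwann cell marker that fell was Erbb3 (120.6 CPM in KO and 244 CPM in WT). No marker was at 0 in all libraries. The part of these cells and of the mitochondrial share in the results below was not tested, and in bulk RNA fewer cells of a type and less RNA per cell cannot be told apart.

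All 10 genes fell in KO cells. In each of them every KO library lay below every WT library, and edgeR's quasi-likelihood test called each at an adjusted p under 0.05. Over all tested genes, 66.7% were called, 33.0% as lower and 33.7% as higher in KO, and 34.1% had every KO library below every WT library. The sizes of the falls differed. Of the 6 ligase genes, 5 fell by over 2-fold, as did 1 of the 4 Foxo genes, against 9.38% of all tested genes. The median log2 fold change was -1.65 for the ligases, -0.48 for the Foxo factors and -1.26 for all 10, beside 0.02 for all tested genes. With library size as the only scaling the median of all tested genes moved by 0.17 on the log2 scale, to 0.19; the direction held for all 10 genes under that scaling, and the call was lost for Fbxo32 alone.

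**Figure D1:**
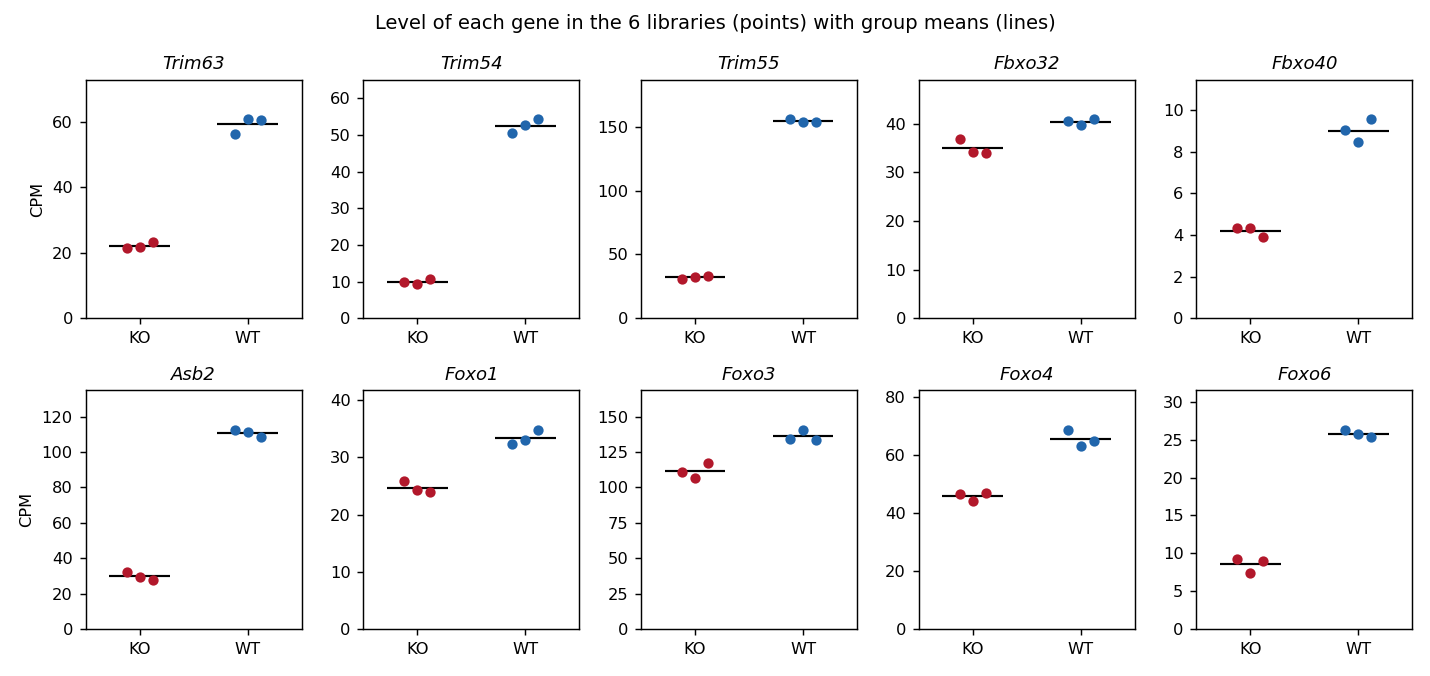
Level in CPM (y axis, from 0) of the 10 genes in each KO and WT library (points) with the group means (lines). In every panel the 3 KO points lie below the 3 WT points, with the widest gaps for Trim54, Trim55 and Asb2 and the narrowest for Fbxo32 and Foxo3.

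Foxo3, the Foxo factor best known for driving atrophy genes and autophagy in muscle, changed least in the family. It stood at 110.7, 106.5 and 117.5 CPM in KO replicates 1 to 3, against 134.5, 140.5 and 133.3 CPM in WT replicates 1 to 3. The groups did not overlap, and KO replicate 3 stood nearest to the WT libraries. The means were 111.6 ± 5.54 CPM in KO and 136.1 ± 3.83 CPM in WT (SD, n = 3 each), which gives -0.29 as log2 fold change (SE 0.05, adjusted p 1.69e-06). When library size was the only scaling, the same test gave -0.12 (adjusted p 0.0248), so the size of this fall depends on the scaling. Foxo3 lies on chromosome 10 at 42181841 to 42276755 on the minus strand (mm10), and its longest annotated transcript has 4 exons.

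Foxo1, which in muscle acts on metabolism and on the myogenic program as well as on atrophy genes, had 25.8, 24.3 and 23.9 CPM in KO and 32.3, 33.0 and 34.7 CPM in WT. It fell 1.35-fold (log2 fold change -0.44, SE 0.07, adjusted p 7.83e-07). Foxo1 spans 52268336 to 52353221 on chromosome 3, plus strand, and shares 7.78% of its exonic bases with the antisense gene Gm20402, so counting without strand could not separate them there. Foxo4, a smaller member of the family encoded on the X chromosome (101254528 to 101260873), had 46.6, 44.1 and 46.8 CPM in KO and 68.7, 63.1 and 64.9 CPM in WT, a fall of 1.43-fold (-0.52, SE 0.06, adjusted p 5.76e-10). The X-linked RNA Xist averaged 457.2 ± 35 CPM in KO and 153.9 ± 1.54 CPM in WT, a rise of 1.57 on the log2 scale (SD, n = 3 each). Of 4 Y-linked genes, Ddx3y (-0.78), Uty (-0.50) and Eif2s3y (-0.42) fell, and Kdm5d was not called, at 16.5 ± 0.563 CPM in KO and 14.8 ± 0.11 CPM in WT (adjusted p 0.101). Both kinds of transcript were present in every library. The part of these differences in the values of Foxo4 and of the other genes and lists was not tested.

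Foxo6, the member that differs from the others in shuttling less between nucleus and cytoplasm, fell most in the family. It had 9.28, 7.45 and 8.96 CPM in KO and 26.3, 25.8 and 25.3 CPM in WT. The KO libraries held about a 3.02-fold lower level, that is -1.60 on the log2 scale (SE 0.09, adjusted p 2.13e-17). The noncoding gene Foxo6os, annotated beside it on chromosome 4 and named here after its values were seen, stood at 1.63, 1.51 and 1.26 CPM in KO against 5.56, 4.74 and 5.15 CPM in WT (-1.80, SE 0.19, adjusted p 2.32e-10). No exonic base of Foxo6 is shared with another annotated gene.

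The Foxo mixture differed between genotypes. The summed level of the 4 genes per kb of exon was 34.0 ± 1.45 CPM per kb in KO and 50.5 ± 0.686 in WT (SD, n = 3 each). Foxo6 made up 9.61% ± 0.755 of that sum in KO and 19.5% ± 0.111 in WT. Foxo3 made up 43.3% ± 0.925 in KO and 35.6% ± 1.13 in WT. The shares of Foxo4 (38.7% ± 0.443 in KO and 37.2% ± 1.24 in WT) and Foxo1 (8.38% ± 0.449 in KO and 7.62% ± 0.387 in WT) overlapped between genotypes. Foxo1 relative to Foxo3 in the same library had a mean log2 ratio of -2.18 ± 0.10 in KO and -2.03 ± 0.08 in WT, and the 3 KO values lay below the 3 WT values.

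The 3 MuRF genes each fell by over 2-fold. Trim63, whose product marks myosin and other thick filament proteins for the proteasome, had 21.6, 21.8 and 23.2 CPM in KO and 56.3, 60.8 and 60.7 CPM in WT. KO libraries thus held 37.4% of the WT level (log2 fold change -1.42, SE 0.06, adjusted p 1.95e-20). It spans 134315120 to 134329629 on chromosome 4, plus strand, with 9 exons in its longest transcript.

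Trim55, which encodes a MuRF that binds microtubules and titin during sarcomere assembly, had the highest level per kb of exon of the 10 genes in WT cells. It stood at 31.0, 32.7 and 32.8 CPM in KO and 155.9, 153.9 and 153.8 CPM in WT, a 4.8-fold fall (-2.26, SE 0.05, adjusted p 2.39e-29) at 19644474 to 19692421 on chromosome 3. Trim54, whose product stabilises microtubules in developing muscle cells, fell 5.31-fold, with 9.92, 9.28 and 10.6 CPM in KO and 50.4, 52.8 and 54.2 CPM in WT (-2.41, SE 0.07, adjusted p 2.52e-25). Of all tested genes, 1.6% had a lower fold change than Trim54 and 2.02% a lower one than Trim55. Trim54 (chromosome 5, 31116712 to 31137630) shares 26.6% of its exonic bases with the antisense gene Gm15469, to which 0 to 6 counts per library were assigned in KO and 3 to 7 in WT. Those counts do not show whether reads of the shared part were left unassigned, as counting without strand could do.

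Per kb of exon, the 3 MuRF genes together reached 26.8 ± 0.942 CPM per kb in KO and 115.5 ± 1.74 in WT (SD, n = 3 each). Trim63 supplied 29.1% ± 0.158 of that sum in KO and 18.1% ± 0.533 in WT, Trim54 25.8% ± 1.13 in KO and 31.6% ± 0.675 in WT, and Trim55 45.1% ± 1.24 in KO and 50.3% ± 1.15 in WT. All 3 shares were apart between genotypes, that of Trim63 higher and those of Trim54 and Trim55 lower in KO.

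**Figure D2:**
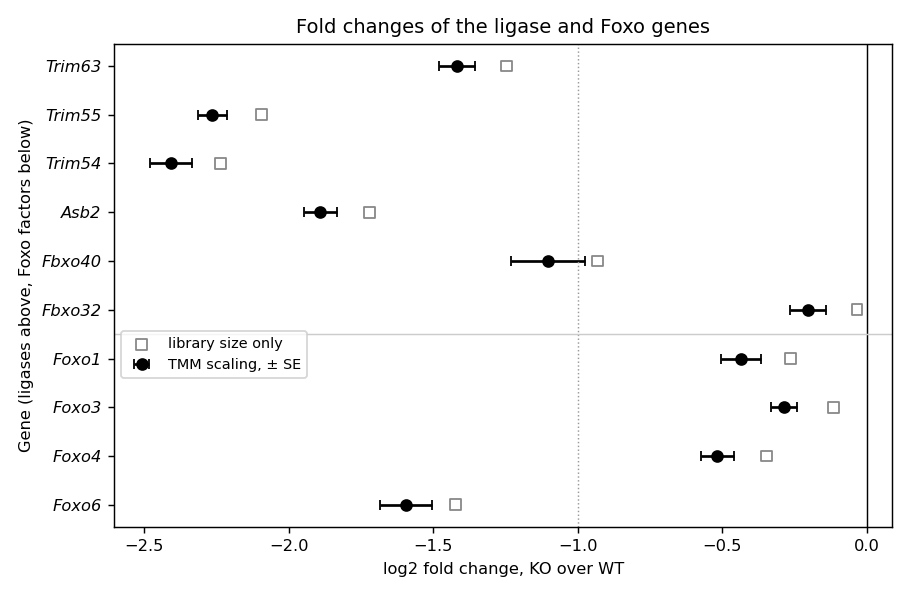
Log2 fold change of KO over WT (x axis) for the 10 genes (y axis), as filled points ± SE with TMM scaling and open squares with library size only; the dotted line marks a 2-fold fall. Trim54 and Trim55 lie below -2, Fbxo32 and Foxo3 lie between -0.3 and 0, and the squares sit 0.17 to the right of the points.

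The F-box genes split. Fbxo32, the gene of atrogin-1, which recognises Myod1 and the initiation factor Eif3f, had 36.9, 34.2 and 34.0 CPM in KO and 40.6, 39.7 and 40.8 CPM in WT. Its mean was 35.0 ± 1.63 CPM in KO and 40.4 ± 0.595 CPM in WT (SD, n = 3 each), which gives -0.20 as log2 fold change (SE 0.06, adjusted p 0.00397). With library size as the only scaling the change was -0.03 (adjusted p 0.63), so the call rests on the scaling. Fbxo32 lies on chromosome 15 at 58175879 to 58214932 and shares 2.67% of its exonic bases with Gm15943. Fbxo40, a receptor that acts on the insulin receptor substrate Irs1, had the lowest level per kb of exon of the 10 and stood at 4.35, 4.34 and 3.9 CPM in KO and 9.04, 8.48 and 9.55 CPM in WT, from 74 to 109 counts per library in KO and 161 to 256 in WT. It fell 2.15-fold (-1.10, SE 0.13, adjusted p 2.65e-09) and lies on chromosome 16 at 36963460 to 36990467.

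Asb2 encodes the receptor that targets filamins during muscle differentiation. It stood at 32.3, 29.6 and 27.5 CPM in KO and 112.3, 111.4 and 108.3 CPM in WT, a 3.71-fold fall (-1.89, SE 0.06, adjusted p 1.92e-25). The gene spans 103321142 to 103356001 on chromosome 12, minus strand. RefSeq gives it a pair of start sites in the promoter table, and gene-level counts do not tell the transcripts from these starts apart.

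RefSeq promoter windows (GRCm38.p6, 250 bases before to 50 bases after a start) were found for 6 of the 10 genes, 8 windows in all. The 250 bases before the start are printed 5′ to 3′ for 4 of them, to show what lies upstream of ligase genes that fell by over 2-fold and of 1 Foxo gene that fell by less: Trim63 (chr4:134314870-134315119, plus strand), Trim54 (chr5:31116362-31116611, plus strand), the upstream start of Fbxo40 (chr16:36990468-36990717, minus strand) and Foxo1 (chr3:52268087-52268336, plus strand). Capitals mark matches, on either strand, to a Foxo motif (TGTTTAC), an E-box of the kind Myod1 prefers (CAGCTG), a Mef2 motif (CTA, any 4 bases, TAG) and a glucocorticoid receptor motif (G, any base, ACA, any 3 bases, TGT, any base, C). Foxo1 has none of them and is printed in lower case throughout. Asb2, a ligase gene that also fell by over 2-fold, is not printed. None of these motifs lies in the 250 bases before either of its starts.
Trim63: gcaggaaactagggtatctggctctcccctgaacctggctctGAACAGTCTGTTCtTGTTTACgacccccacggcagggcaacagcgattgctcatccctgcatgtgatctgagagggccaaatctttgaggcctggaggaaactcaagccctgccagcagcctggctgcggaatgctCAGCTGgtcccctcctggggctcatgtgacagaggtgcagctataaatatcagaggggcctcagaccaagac
Trim54: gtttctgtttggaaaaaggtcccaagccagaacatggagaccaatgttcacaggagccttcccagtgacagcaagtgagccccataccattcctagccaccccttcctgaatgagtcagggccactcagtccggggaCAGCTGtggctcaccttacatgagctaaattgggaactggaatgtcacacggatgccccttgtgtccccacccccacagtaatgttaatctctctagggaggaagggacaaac
Fbxo40: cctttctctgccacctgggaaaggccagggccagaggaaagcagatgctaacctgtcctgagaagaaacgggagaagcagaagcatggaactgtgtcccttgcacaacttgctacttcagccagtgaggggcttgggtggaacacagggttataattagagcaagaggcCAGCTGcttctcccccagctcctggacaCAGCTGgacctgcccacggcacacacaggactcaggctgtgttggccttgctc
Foxo1: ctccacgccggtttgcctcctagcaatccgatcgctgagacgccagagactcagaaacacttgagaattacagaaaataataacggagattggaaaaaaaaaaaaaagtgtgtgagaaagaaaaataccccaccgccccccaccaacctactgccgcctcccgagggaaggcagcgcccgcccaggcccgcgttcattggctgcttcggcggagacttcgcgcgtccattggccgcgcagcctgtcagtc

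Trim63 was the only one of the 8 windows with the Foxo motif, 194 bases before the start, and with the glucocorticoid motif, 208 bases before it, so that 1 base separates them. The Foxo letters occur in 3.65% and the glucocorticoid letters in 0.475% of 32851 RefSeq windows of the same length. CAGCTG, found in 16.3% of all windows, was in 5 of the 8: 72 bases before the Trim63 start, 113 before the Trim54 start, 81 and 53 before the upstream Fbxo40 start and 89 before its other start, and 21 bases after the second Asb2 start. Every CAGCTG is also a CANNTG, the general E-box, which was in 7 of the 8 windows and in 72.3% of all. The Mef2 letters were in 3.69% of all windows and in none of the 8, and the Foxo3 window held none of the motifs. These are matches of letters, which do not show binding, and a missing match says only that the letters are not in the window.

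Levels can be compared between genes once divided by exonic length. In KO the order was Foxo3 (14.7 ± 0.732 CPM per kb), Foxo4 (13.2 ± 0.432), Trim55 (12.1 ± 0.388), Asb2 (8.41 ± 0.684), Trim63 (7.81 ± 0.316), Trim54 (6.92 ± 0.458), Fbxo32 (5.02 ± 0.234), Foxo6 (3.28 ± 0.375), Foxo1 (2.85 ± 0.113) and Fbxo40 (0.76 ± 0.047). In WT it was Trim55 (58.1 ± 0.453), Trim54 (36.5 ± 1.33), Asb2 (31.2 ± 0.598), Trim63 (20.9 ± 0.907), Foxo4 (18.8 ± 0.814), Foxo3 (18 ± 0.506), Foxo6 (9.85 ± 0.183), Fbxo32 (5.79 ± 0.085), Foxo1 (3.85 ± 0.147) and Fbxo40 (1.64 ± 0.098; SD, n = 3 throughout). Foxo factors thus held the first and second place in KO, and ligases the first 4 places in WT. Libraries of neighbours overlapped for Asb2 and Trim63 and for Foxo6 and Foxo1 in KO, and for Foxo4 and Foxo3 in WT. With the longest transcript as the length, Trim63 (11.8 CPM per kb) stood above Asb2 (11.1) in KO and Asb2 (41.1) above Trim54 (36.6) in WT, so those places rest on the annotation. Values of Trim54 divide by its full exonic length, the part shared with Gm15469 included. If reads there were left out, its level per kb and its share among the MuRF genes are too low, which was not tested.

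**Figure D3:**
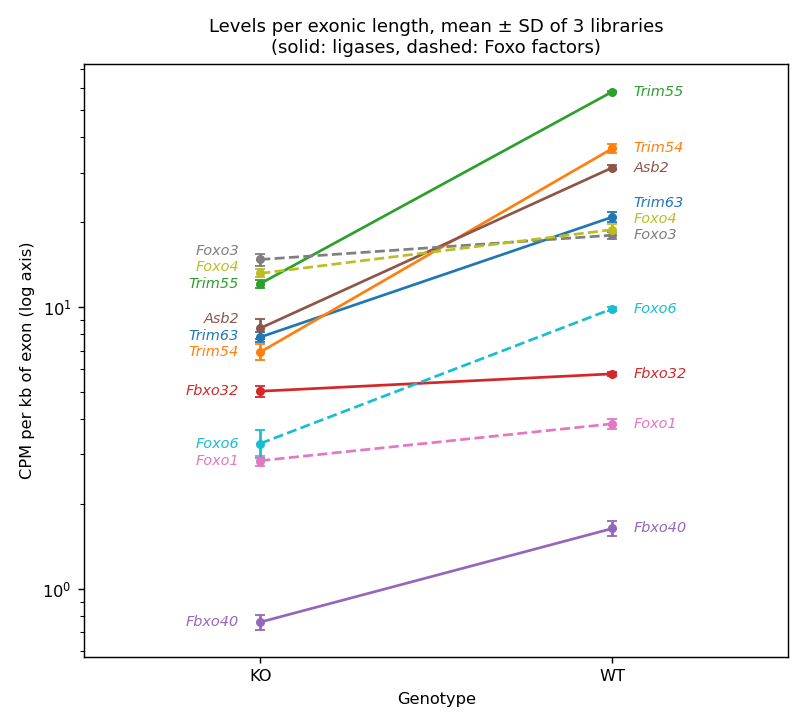
Mean level in CPM per kb of exon (log axis) in KO and WT, with SD over 3 libraries; solid lines are ligases and dashed lines Foxo factors. The lines of Trim55, Trim54, Asb2 and Trim63 cross those of Foxo3 and Foxo4, which lead in KO at 14.7 and 13.2 and lie below these ligases in WT.

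Each gene was then set against the 12 muscle genes of the same library, whose sum was 3.94-fold lower in KO. Relative to that sum, Trim54 was lower in KO by 0.42 and Trim55 by 0.29 on the log2 scale, whereas Trim63 was higher by 0.56, Fbxo40 by 0.87 and Foxo6 by 0.38. Fbxo32 was higher by 1.77, Foxo3 by 1.69, Foxo1 by 1.54 and Foxo4 by 1.46, the sizes that a gene with a small fall of its own must show here. The authors' tables per library do not match the matrix, and the ratios that could be computed there were all higher in KO. They were higher by 1.43 for Trim54, 1.12 for Fbxo32, 2.13 for Fbxo40 and 0.56 for Asb2. In the matrix Asb2 was nearest to the change of the summed muscle genes, with log2 ratios of -7.62, -7.82 and -7.86 in KO and -7.83, -7.85 and -7.86 in WT, a difference of 0.08 (exact permutation test, two-sided, p = 0.4). Against the geometric mean of the same genes, chosen after seeing the data, Trim55 was nearest (-0.07, against 0.30 for Asb2). In that mean Tnnc2 (0.167 CPM in KO and 0.796 CPM in WT) weighs as much as each other gene. Its log2 fold change of -2.22 was close to the median of the 12 genes, -2.23. The sum weighs abundant genes most, and these differed in their fall. The most abundant in KO were Mylpf (1563 CPM, log2 fold change -0.66), Acta1 (1475 CPM, -1.89) and Myh3 (947.7 CPM, -2.59). For the 9 genes other than Asb2 the KO and WT ratios to the sum did not overlap. Within the same library the log2 ratio of Trim63 to Fbxo32 was -0.66 ± 0.11 in KO and 0.55 ± 0.07 in WT (SD, n = 3 each), a difference of -1.21. With 3 libraries against 3 the exact permutation test cannot go below 0.1, the value it gave for 11 of the 12 ratios computed, those of Foxo1 to Foxo3 and Trim63 to Fbxo32 included, or 0.109 after Benjamini-Hochberg adjustment.

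**Figure D4:**
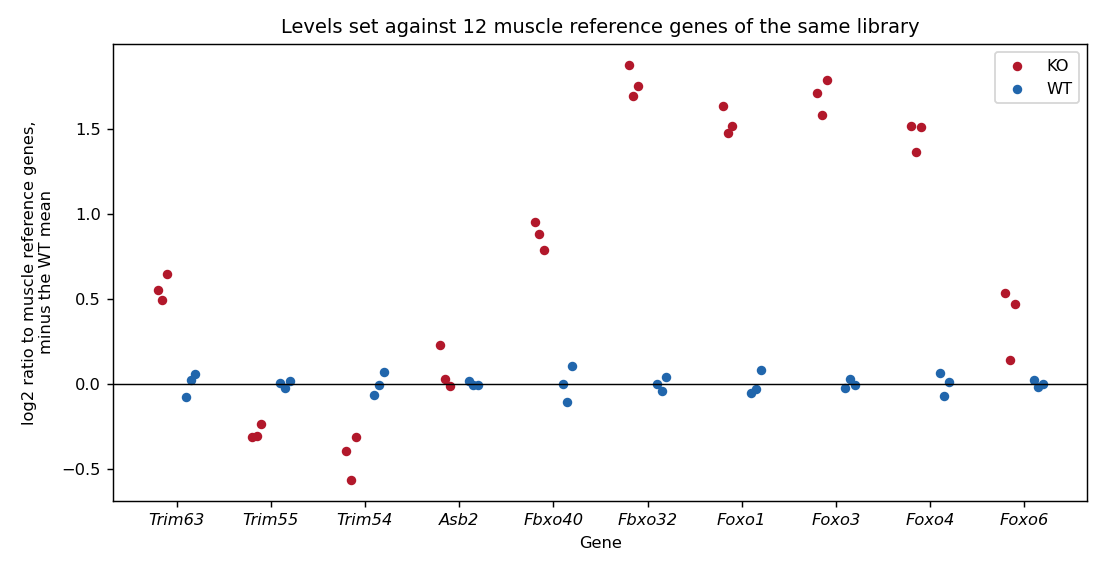
Log2 ratio of each gene to the summed CPM of 12 muscle reference genes of the same library, minus the WT mean of that gene (y axis), for KO and WT libraries (points). KO points lie above WT points for 7 genes, highest for Fbxo32 and Foxo3, below them for Trim54 and Trim55, and overlap them for Asb2.

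Other ubiquitin ligase genes of muscle fell in most cases. Of 25 such genes tested, 18 fell, 5 rose and 2 were not called (median log2 fold change -0.35; 14 fell and 7 rose with library size only), and 7 fell by over 2-fold. Those with the smallest p were the kelch-repeat proteins Klhl41 (-2.71), Klhl40 (-1.74; 21.6% of its exonic bases are shared) and Klhl31 (-2.06), and the membrane repair protein Trim72 (-2.92; 27.6% shared). Of 13 tested genes of the Asb family other than Asb2, 9 fell, 4 were not called and none rose (median -0.81). Asb5 (-1.29), Asb16 (-2.12), Asb8 (-0.81) and Asb15 (-1.57) had the smallest p, with Asb16 at 3.52 ± 0.029 CPM in KO and 15.3 ± 1.77 CPM in WT. Among cullin-RING subunits and regulators 12 of 17 fell and 1 rose (median -0.31; 10 fell and 5 rose with library size only). Cand2, a cullin exchange factor of muscle, fell to 38.8 ± 3.94 CPM in KO, against 141.2 ± 8.12 CPM in WT (-1.87), and the cullins Cul3 (-0.88), Cul4a (-0.53) and Cul5, the scaffold that Asb2 joins (-0.65), fell too. The RING subunit Rbx1 rose by 0.31. Of 31 proteasome subunit genes, 18 fell, 4 rose and 9 were not called (median -0.15; 0.02 with library size only, when 9 fell and 9 rose), with Psmc3 (-0.51), Psmc6 (-0.46), Psmd12 (-0.46) and Psmd1 (-0.43) of the regulatory particle first. Members that rose, named after their values were seen, were the ligases Ubr4 (0.39), Smurf1 (0.36), Fbxo21 (0.32), Ubr2 (0.26) and Trim32 (0.18) and the core subunits Psma7 (0.26), Psmb2 (0.20), Psma6 (0.13) and Psmb1 (0.11). Of all tested genes, 33.0% fell, 33.7% rose and 9.38% fell by over 2-fold, with a median of 0.02. The counts of these lists and of those that follow are read beside these values.

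Upstream of the Foxo factors, 14 of 19 genes of the Igf and Akt pathway fell and 3 rose (median -0.31; 9 fell and 5 rose with library size only). The kinase gene Akt2, an abundant Akt form of muscle, fell to 181.4 ± 7.11 CPM in KO, against 329.6 ± 4.62 CPM in WT (-0.86). Akt1, named after its values were seen, had more counts and was not called, at 417.6 ± 3.82 CPM in KO and 394.4 ± 5.28 CPM in WT (0.08). With library size only Akt1 was called higher (0.25). Rptor (-0.87), Mtor (-0.61) and the lipid kinase subunit Pik3cb (-0.96) fell. Irs2 (0.41), the Akt phosphatase Phlpp2 (0.50) and Igf1r (0.18) rose. Among enzymes that modify Foxo and 14-3-3 genes, 11 of 20 fell and 5 rose (median -0.15; 0.02 with library size only, when 6 fell and 8 rose). The muscle AMPK subunit Prkaa2 fell 5.16-fold (-2.37), the 14-3-3 gene Ywhae (-0.50) and the kinase Stk4 (-0.59) fell, and Ywhaq rose (0.54). The list of the glucocorticoid receptor and its targets divided evenly, with 4 of 9 lower and 4 higher (median -0.13; 0.05 with library size only, when 2 fell and 4 rose). The metallothionein Mt1 (2.22), the transcription factor Klf15 (1.49) and the mTOR inhibitor Ddit4 (0.79) rose, and Klf9 fell (-0.52).

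Genes known as Foxo targets moved in both directions, as did all tested genes, of which 33.0% fell and 33.7% rose. Of 22 autophagy and mitophagy genes, 10 fell and 7 rose (median -0.03; 0.14 with library size only, when 8 fell and 12 rose). The cargo receptor Sqstm1 rose to 1122 ± 39 CPM in KO, against 621.2 ± 20.2 CPM in WT (0.85; 17.3% of its exonic bases are shared), Gabarap (0.59) and Gabarapl1 (0.63; 28.3% shared) rose, and the mitophagy receptor Bnip3 fell (-0.67; 22.2% shared). Of 18 other target genes, 10 fell and 6 rose (median -0.22; -0.05 with library size only, when 8 fell and 8 rose). The pyruvate dehydrogenase kinase Pdk4 fell 4.71-fold (-2.24), the repressor Bcl6 fell (-0.87), and the translation inhibitor Eif4ebp1 (0.87) and Klf15 rose. Among 17 partners and substrates of the ligases, 13 fell and 4 rose (median -0.91). Desmin, Des (-2.43), muscle creatine kinase, Ckm (-2.25; 15.5% shared), and the myosin-binding proteins Mybpc1 (-2.04) and Mybpc2 (-4.32) had the smallest p. The 4 that rose, named after their values were seen, were Sqstm1, the intermediate filament gene Vim (0.68), the Fbxo32 substrate Eif3f (0.40) and the Asb2 substrate Flna (0.31). These lists were chosen by hand from general knowledge, overlap each other, and hold genes with other regulators.

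**Figure D5:**
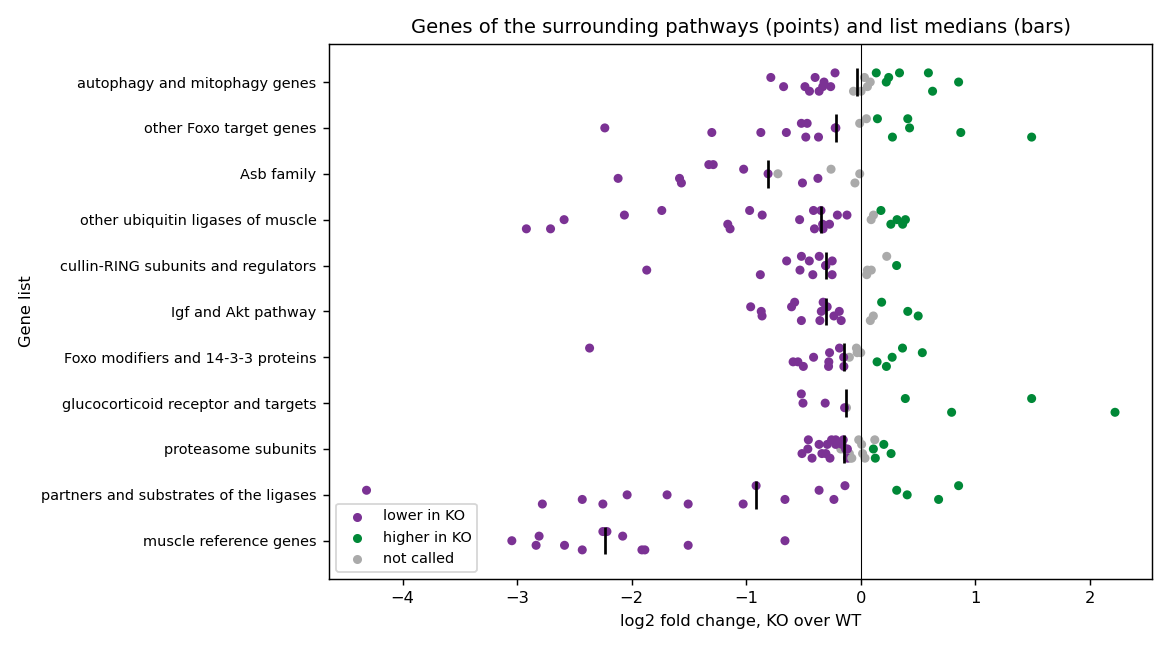
Log2 fold change of KO over WT (x axis) of each tested gene in 11 gene lists (y axis), coloured by its call, with the list median as a bar. The Asb family and the partners and substrates lie mostly to the left, while points of the autophagy, Foxo target and glucocorticoid lists fall on both sides of 0.

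The protein-coding genes nearest in pattern were found for each gene among 10810 with a mean of at least 5 CPM, as the smallest Euclidean distance between log2 levels centred over the 6 libraries. With only 2 groups such a distance mostly measures a like fold change. The nearest were Pkia and Rapsn for Trim63 (distances of 0.066 and 0.077), Cemip and Art1 for Trim54 (0.073 and 0.116), Npnt and the M-band gene Myom3 for Trim55 (0.075 and 0.079), and Myl6b for Asb2 (0.094). Hid1 and F11r were nearest to Fbxo40 (0.092 and 0.1) and 1600012H06Rik and Taf2 to Fbxo32 (0.038 and 0.043). For the Foxo factors they were Cdc27 and Etnk1 for Foxo1 (0.039 and 0.051), Smg8 and Gpc1 for Foxo3 (0.037 and 0.048), Ak3 and Dmwd for Foxo4 (0.067 and 0.068), and Cxcl9 and Cdc42ep3 for Foxo6 (0.102 and 0.106).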

How the data were processed

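RNA-seq gene counts of 6 mouse libraries were used, 3 KO and 3 WT by the genotype in the labels. The submitters' processing notes name HISAT2 2.2.1, featureCounts 2.0.1 and the build mm10. The annotation and strand setting were not given in the sources used here. Raw counts were deposited by the authors in 2 forms, a matrix of the series, used here, and a table per library. These disagree gene by gene: the table mean was between 0.8 and 1.25 times the matrix mean for 0 of the 10 genes, so the tables served only as an alternative. Of the matrix identifiers, 21632 matched GENCODE M21 (mm10), the source of symbols, 1-based positions and exon lengths; exonic overlaps were found with bedtools 2.31.1.

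Genes passing filterByExpr (minimum count 10, minimum total 15) were tested with edgeR 4.0.16 in R 4.3.3 (TMM, robust quasi-likelihood F-test, genotype as the only term) and Benjamini-Hochberg adjustment over all 15518 genes. The biological coefficient of variation was 4.91%. SE was taken as log2 fold change over root F. CPM use TMM-scaled library sizes. Replicate pairs differed by more than sampling noise (mean chi-square per gene 3.18 to 5.11). The fits were run on simulated counts in which few genes changed, evenly up and down. That setting differs from these data, where most genes were called, so it does not test the scaling. Alternatives used DESeq2 1.42.0, limma 3.58.1, other scalings and filters, a 1.5-fold test and left-out libraries. The genes and lists were chosen with earlier results of these data known. Named genes are the 10, the 4 with the smallest p in each list, and members called against a list's majority where 3 or fewer, and the 2 nearest in pattern to each of the 10, of which 1 is not reported here; other genes named were chosen after their values were seen, which the text says of list members. lncMREF was not matched to an identifier, so the knockout was not checked.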

Additional observations from a re-analysis of the deposited data

How the results depend on the processing

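Under the 1.5-fold test 6 of the 10 genes and 3394 of all tested genes were called, in place of 10 and 10353, and Fbxo32, Foxo1, Foxo3 and Foxo4 lost their calls. The per-library tables, whose counts do not match the matrix, gave 5436 calls among 9871 genes; of the 10 genes only 3 could be tested there, of which 1 was called, Fbxo32 (-0.46), and Trim54 (-0.14, adjusted p 0.727) and Asb2 (-0.85, adjusted p 0.112) were not. Leaving out 1 library at a time gave 9766 to 10151 calls, and all 10 genes stayed called each time, with Fbxo32 at an adjusted p of at most 0.0179. With library size only, 66.1% of calls were higher in KO, in place of 50.5%, and 9 of the 10 were called. DESeq2, limma voom, median-of-ratios factors and no low-count filter changed no call of the 10. Deviations of same-numbered libraries from their group means correlated at -0.001, -0.009 and -0.025 across genes, so no shared shift was seen. Means of 3 libraries per group cannot settle whether the numbers stand for a pairing, and the labels do not say. The fit with the replicate block gave 10209 calls and all 10 genes. Against the geometric mean of the 12 muscle genes, chosen after seeing the data, Trim54 was lower by a log2 difference of -0.21 and Trim55 by -0.07. Asb2 was higher by 0.30 there, so that Trim55 and not Asb2 was nearest to the muscle genes. That mean gives Tnnc2, which was near the floor, the same weight as each other gene. The log2 fold change of Tnnc2, -2.22, was close to the median of the 12 muscle genes, -2.23. Fbxo40 had the fewest counts of the 10, 74 to 256 per library, and the largest SE.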
